A study of Homo sapiens with 8 samples.

Results

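The S phase and M phase genes described here are 40 named genes, 20 that serve DNA replication and its control and 20 that serve the G2/M transition and mitosis. They were chosen by name, as the rows carrying these symbols in the deposited tables, and all 40 were found among 56638 entries. The rule uses names and no measured value, but the set was put together with earlier results of these data known. The S phase set holds MCM2, MCM3, MCM4, MCM5, MCM6, MCM7, PCNA, RRM1, RRM2, TYMS, CCNE1, CCNE2, CDC6, CDT1, E2F1, GINS2, UHRF1, RFC4, FEN1 and TK1. The G2/M set holds CCNB1, CCNB2, CCNA2, CDK1, CDC20, PLK1, AURKA, AURKB, BUB1, BUB1B, TOP2A, CKS2, CENPE, CENPF, KIF11, KIF20A, TPX2, BIRC5, MKI67 and UBE2C.

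The cells were A375, an established human malignant melanoma line from skin, kept in DMEM with 10% FBS. All 4 groups were transfected with the plasmid pcDNA3.1(-) by Lipofectamine 2000, 24 h after seeding, and were harvested 48 h after that. The plasmid was empty (vector), or it expressed full-length SLNCR1, a long noncoding RNA (SLNCR1), the conserved region of SLNCR1 alone (conserved), or SLNCR1 with that region deleted (delta-conserved). Each group had 2 poly(A)-selected RNA libraries. Whether the paired libraries stem from different cultures is not said in the labels, and each p-value measures the spread between these libraries, which may be technical. In a bulk culture, more cells in a phase and more RNA of a gene per cell cannot be told apart.

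Cells that commit to division first express genes for replication and later those for mitosis. The E2F transcription factors, held in check by the retinoblastoma protein in G1, drive the replication genes. The DREAM complex represses both kinds of genes in resting cells, and the related MuvB complex with MYBL2 and FOXM1 activates the mitotic ones. Replication genes often carry E2F sites near their start, and mitotic genes a CHR element (cell cycle genes homology region) next to CCAAT boxes bound by NF-Y. The summed level of such genes is widely read as a sign of how many cells in a culture are cycling.

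Between 8222868 and 12015394 reads were assigned to genes per library. The labels do not tie replicate numbers to the libraries recovered from the group means, so the deeper library of each group is called a and the other b. The entry LINC00511 was taken here as the one that reads the transfected RNA, and this was not tested. LINC00511 stood at 628 and 621 normalized counts in vector libraries a and b and at 865 and 886 with SLNCR1. It stood at 1155 and 870 with delta-conserved and at 1052 and 1141 with the conserved region. It was thus higher in all 6 libraries with a construct. Of 10 melanocyte lineage markers, 8 had a mean of at least 10 normalized counts, led by SOX10 and ERBB3, while the pigmentation enzymes TYR and DCT were near 0. Leukocyte markers summed to 44.5 to 65.0 normalized counts per library, with PTPRC and CD3E at or near 0. Of 5 keratinocyte markers 2 had a mean of at least 10, KRT10 and KRT14, and KRT1 and DSG3 were at or near 0. Their sum, mostly KRT10, was 649 to 694 in vector, 671 to 740 with the conserved region, 713 to 774 with SLNCR1 and 724 to 779 with delta-conserved. Fibroblast markers summed to 624 to 805 normalized counts, mostly PDGFRB. The summed melanocyte markers ranged from 6356 to 6597 in vector, from 6432 to 6679 with the conserved region, from 6898 to 7005 with SLNCR1 and from 7113 to 7155 with delta-conserved. The melanocyte and keratinocyte sums were thus higher than in vector in the same 2 groups as many of the cell cycle genes described next, and their part in those results was not tested.

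The promoters of both sets show the letters their regulators are known for, and the examples were chosen because most of these genes carry the expression results that follow. Sequences are from RefSeq on GRCh38.p14, and 17 of 20 S phase and 16 of 20 G2/M genes were matched by symbol in windows from 250 bases before to 50 bases after a start. MCM4, MCM5, CCNE2, UBE2C, AURKA, TPX2 and BIRC5 were not matched. The motifs searched on both strands were the E2F site (TTTCGCGC or TTTGGCGC), the CHR element (TTTGAA or TTCGAA) and the CCAAT box (CCAAT). An E2F site can overlap another E2F site on the opposite strand, and a CHR element can overlap a CCAAT box. Capitals mark these motifs, on either strand, in the stretches of S phase genes from MCM6 (chr2:135876494-135876603, minus strand), E2F1 (chr20:33686386-33686505, minus strand), PCNA (chr20:5126633-5126782, minus strand, first listed start) and RRM2 (chr2:10122609-10122688, plus strand, first listed start), each printed 5′ to 3′ along the gene and ending before the annotated start.
MCM6: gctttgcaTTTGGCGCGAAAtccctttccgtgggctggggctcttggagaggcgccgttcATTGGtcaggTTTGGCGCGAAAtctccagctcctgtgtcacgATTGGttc
E2F1: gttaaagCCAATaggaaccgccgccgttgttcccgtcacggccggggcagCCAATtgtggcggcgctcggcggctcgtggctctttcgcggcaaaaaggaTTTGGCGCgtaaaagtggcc
PCNA: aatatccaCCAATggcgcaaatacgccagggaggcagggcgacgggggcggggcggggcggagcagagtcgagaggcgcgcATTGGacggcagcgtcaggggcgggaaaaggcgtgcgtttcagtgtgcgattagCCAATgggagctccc
RRM2: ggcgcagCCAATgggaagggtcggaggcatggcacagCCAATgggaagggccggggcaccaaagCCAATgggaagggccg

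The stretches of G2/M genes, marked in the same way, are from CDC20 (chr1:43358871-43358940, plus strand), CCNB1 (chr5:69167055-69167109, plus strand), CCNB2 (chr15:59105016-59105135, plus strand), CDK1 (chr10:60778343-60778477, plus strand, second listed start), PLK1 (chr16:23678809-23678878, plus strand), CKS2 (chr9:89311040-89311184, plus strand) and TOP2A (chr17:40417937-40418096, minus strand).
CDC20: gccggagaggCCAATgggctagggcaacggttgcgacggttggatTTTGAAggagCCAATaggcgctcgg
CCNB1: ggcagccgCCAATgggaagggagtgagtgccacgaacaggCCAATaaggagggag
CCNB2: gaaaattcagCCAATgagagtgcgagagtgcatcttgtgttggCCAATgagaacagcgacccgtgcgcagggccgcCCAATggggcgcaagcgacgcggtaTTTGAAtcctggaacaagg
CDK1: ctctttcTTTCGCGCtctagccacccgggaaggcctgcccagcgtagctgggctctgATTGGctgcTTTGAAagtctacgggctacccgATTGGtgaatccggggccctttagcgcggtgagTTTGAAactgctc
PLK1: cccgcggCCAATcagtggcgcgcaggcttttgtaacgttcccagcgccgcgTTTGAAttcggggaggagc
CKS2: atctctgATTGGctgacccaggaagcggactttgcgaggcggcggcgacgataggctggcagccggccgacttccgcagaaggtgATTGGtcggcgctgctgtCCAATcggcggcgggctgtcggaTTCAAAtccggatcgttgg
TOP2A: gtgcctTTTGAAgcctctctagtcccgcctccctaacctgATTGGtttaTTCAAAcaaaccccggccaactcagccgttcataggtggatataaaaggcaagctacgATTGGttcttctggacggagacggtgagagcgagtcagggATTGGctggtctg

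The upstream stretch of MCM6 holds a pair of E2F sites, each overlapped by a second match on the opposite strand, whereas those of PCNA and RRM2 hold CCAAT boxes and none of these E2F letters. In CDC20, CCNB2, PLK1 and CKS2 a CHR element lies downstream of a CCAAT box, and CDK1 has an E2F site, 2 CCAAT boxes and 2 CHR elements in the stretch shown. CCNB1 has 2 CCAAT boxes and no CHR letters in its window. Counting any listed start of a gene, the E2F letters occurred in 7 of 17 S phase genes (MCM2, MCM3, MCM6, MCM7, CDC6, E2F1 and UHRF1) and in 1 of 16 G2/M genes (CDK1), against 1.4% of 27305 genes in the table. The CHR letters occurred in 2 of 17 S phase genes (MCM6 and RRM1) and 11 of 16 G2/M genes, against 19.5% of all genes. CCAAT boxes were found in 11 of 17 S phase and 14 of 16 G2/M genes, against 39.7% of all genes. CHR and CCAAT letters stood together in 10 of 16 G2/M genes, 2 of 17 S phase genes and 9.02% of all genes. A match describes letters in the window and not binding.

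All 40 genes were expressed in A375 cells, with a mean of 148 normalized counts for the lowest and 5519 for the highest over the 8 libraries. Per length, taking the longest annotated transcript, the highest in vector cells was CDC20, an activator of the APC/C ubiquitin ligase, at 942 and 1024 normalized counts per kb in libraries a and b. UBE2C, the ubiquitin-conjugating enzyme of the APC/C, was next at 812 and 858 per kb, and the following genes, MCM7, CKS2, PCNA and PLK1, lay between 748 and 870 per kb and overlapped with UBE2C and with each other. Levels within the replicative helicase MCM2-7, whose subunits act in equal number, ran from 300 and 305 per kb for MCM6 to 787 and 870 per kb for MCM7. MCM2 (663 and 723 per kb) and MCM4 (677 and 712 per kb) did not differ beyond their spread. The lowest per length was CCNE2, which encodes cyclin E2, at 46.4 and 45.4 per kb, below the kinetochore motor CENPE at 129 and 107 per kb.

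**Figure D1:**
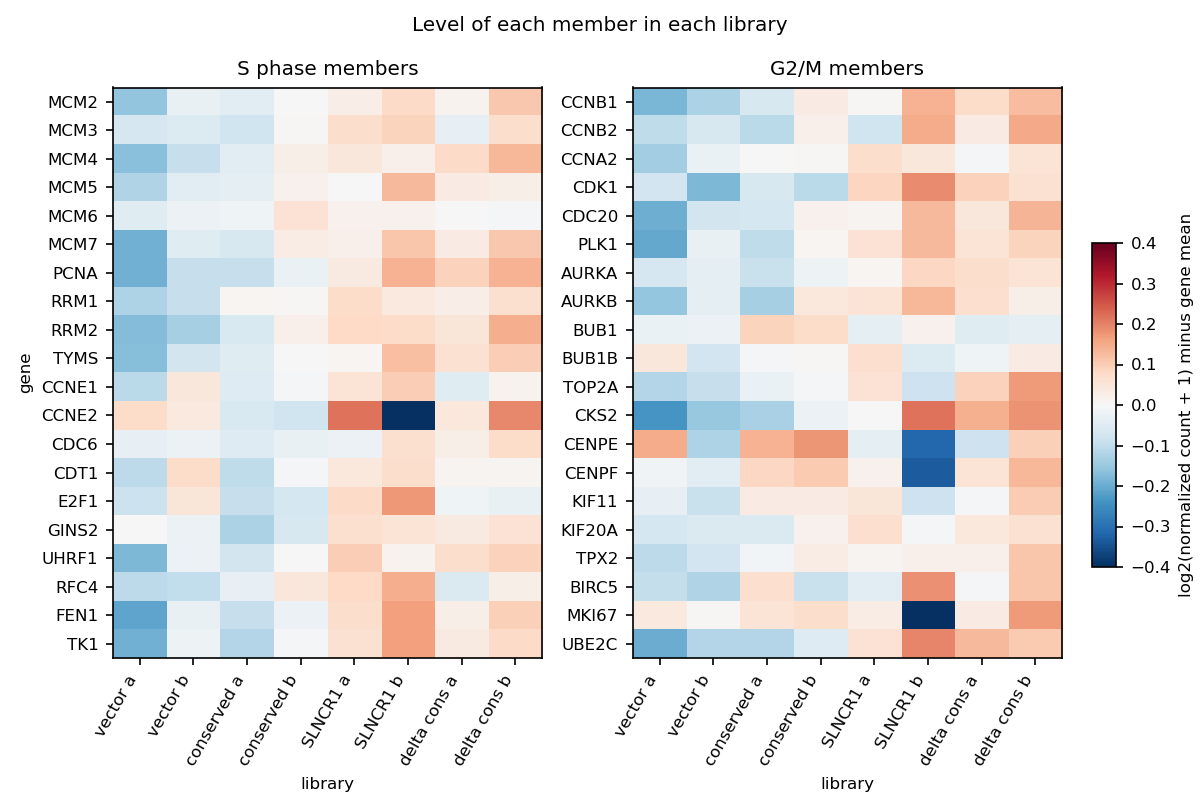
Each row is a gene and each column a library. The colour gives the log2 of the normalized count plus 1, minus the mean of that gene over the 8 libraries, with the colour scale ending at 0.4 in either direction. The 2 vector libraries are mostly blue in both sets, the SLNCR1 and delta-conserved libraries mostly red, and SLNCR1 library b is dark blue for CCNE2, CENPE, CENPF and MKI67.

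The plot of levels by library shows small differences in 1 direction across most genes. The median S phase gene stood at a log2 of -0.12 and -0.03 relative to its mean in vector libraries a and b. The corresponding medians were 0.06 and 0.08 with SLNCR1, 0.03 and 0.07 with delta-conserved, and -0.06 and 0.0015 with the conserved region. For G2/M genes they were -0.10 and -0.07 in vector, 0.02 and 0.07 with SLNCR1, 0.04 and 0.10 with delta-conserved and -0.04 and 0.02 with the conserved region. Both vector medians were thus below those of all 4 SLNCR1 and delta-conserved libraries in both sets, and the conserved-region libraries lay between for G2/M genes. Summed, G2/M genes took 0.341% and 0.33208% of assigned reads in vector and 0.350% and 0.33164% with SLNCR1, whose library b was the lowest of all. The shares were 0.351% and 0.364% with delta-conserved and 0.344% and 0.347% with the conserved region. S phase genes took 0.252% and 0.260% in vector and 0.275% and 0.286% with SLNCR1. They took 0.271% and 0.277% with delta-conserved and 0.257% and 0.264% with the conserved region.

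With full-length SLNCR1, most S phase genes were slightly higher than in vector, and 3 of 20 rose by limma: the sliding clamp PCNA, the ribonucleotide reductase subunit RRM2 and the flap endonuclease FEN1. None fell. Their increases were 17.3% for PCNA, 17.3% for RRM2 and 18.0% for FEN1. The 3 called among 20 stand beside 3.92% of all 16051 genes tested that were called higher, and 5.56% of those whose mean reached 100. In the authors' deposited table none of the 20 passed an adjusted p under 0.05, against 0.0388% of all entries tested, and 4 were higher at an unadjusted p under 0.05, against 2.64% of all entries. PCNA stood at 1056 and 1132 normalized counts in vector libraries a and b and at 1238 and 1329 with SLNCR1. The log2 difference was 0.23 ± 0.07 (SE, limma adjusted p = 0.0407). RRM2 went from 1894 and 1948 to 2256 and 2249, a log2 difference of 0.23 ± 0.07 (limma adjusted p = 0.0344). The vector and SLNCR1 libraries did not overlap for either gene. FEN1, which trims Okazaki fragments, had 1183 and 1341 in vector and 1439 and 1535 with SLNCR1, again with no overlap (0.24 ± 0.07, limma adjusted p = 0.0449).

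The other 17 S phase genes did not pass. The 6 helicase subunits MCM2 to MCM7 had log2 differences between 0.05 (MCM6) and 0.19 (MCM7), and the SLNCR1 libraries lay above the vector libraries for each of them. Nucleotide supply genes were close behind the called ones, with thymidine kinase TK1 at 0.22 ± 0.07 (limma adjusted p = 0.0641), thymidylate synthase TYMS at 0.18 and the large reductase subunit RRM1 at 0.17. RFC4, a subunit of the clamp loader that places PCNA on DNA, had 415 and 418 normalized counts in vector and 472 and 494 with SLNCR1 (0.21 ± 0.08, limma adjusted p = 0.0935). UHRF1, which keeps DNA methylation through replication, was at 0.16 and the transcription factor E2F1 at 0.14. The origin licensing factors CDC6 and CDT1, at 0.05 and 0.07, overlapped with vector, as did cyclin E2 (CCNE2) at -0.16 with a 95% interval from -0.51 to 0.19. GINS2 of the replicative helicase was at 0.07 and cyclin E1 (CCNE1) at 0.11. In all, 17 of 20 S phase genes had both SLNCR1 libraries above both vector libraries, against 27.2% of all genes, and 19 of 20 differences were above 0. The median difference of the set was 0.15, against -0.0005 for all genes tested and 0.03 for those whose mean reached 100.

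Of the G2/M genes, 4 of 20 rose by limma with SLNCR1: CCNB1, CDK1, CKS2 and UBE2C. The background of genes called higher was 3.92% of all tested and 5.56% of those whose mean reached 100. CCNB1 encodes cyclin B1 and CDK1 the kinase it activates at mitotic entry, CKS2 encodes a small protein that binds that kinase, and UBE2C acts in the destruction of cyclin B1. They were 17.2%, 20.3%, 23.3% and 21.7% higher in that order. CCNB1 had 1375 and 1430 normalized counts in vector and 1569 and 1722 with SLNCR1 (log2 difference 0.23 ± 0.07, limma adjusted p = 0.0422). CDK1 had 824 and 768 in vector and 923 and 992 with SLNCR1 (0.27 ± 0.07, limma adjusted p = 0.0267). For both genes the lower SLNCR1 library lay above the higher vector library. CKS2 had 483 and 513 in vector and 570 and 661 with SLNCR1, the widest gap between SLNCR1 libraries of the 4 on the log2 scale (0.30 ± 0.08, limma adjusted p = 0.0313). UBE2C went from 743 and 784 to 886 and 975 (0.28 ± 0.07, limma adjusted p = 0.0216).

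In the authors' deposited table no G2/M gene passed with SLNCR1, and 6 were higher at an unadjusted p under 0.05, against the same 2.64% of all entries. Among genes that did not pass by limma, the mitotic kinase PLK1 was at a log2 difference of 0.21 and CDC20 at 0.21, with limma adjusted p of 0.0676 and 0.0714. AURKB, the kinase of the chromosomal passenger complex, was at 0.19, and its partner survivin (BIRC5) at 0.18. The spindle assembly factor TPX2 was at 0.11, and AURKA, the kinase it activates, at 0.10. Cyclins A2 and B2 (CCNA2, CCNB2) were at 0.14 and 0.12, the motors KIF20A and KIF11 at 0.10 and 0.05, and topoisomerase II alpha (TOP2A) at 0.09. The spindle checkpoint genes BUB1 and BUB1B were at 0.01 and 0.02, with 95% intervals from -0.12 to 0.15 and from -0.13 to 0.17. The kinetochore genes CENPE and CENPF and the proliferation marker MKI67 were the 3 below 0, at -0.19, -0.13 and -0.21, and none of them passed. In all, 13 of 20 G2/M genes had both SLNCR1 libraries above both vector libraries, and none had both below. Of all genes 27.2% had both above, and of the 11202 whose mean reached 100, 3732 did. The median difference was 0.11, against -0.0005 for all genes tested and 0.03 for those whose mean reached 100.

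The limma calls with SLNCR1 depended on single libraries. All of them were lost without vector library a or without SLNCR1 library b. Without SLNCR1 library a more members were called, some of them lower. The number of all genes called higher fell and rose in the same way, so this dependence was not particular to the members. Leaving out 1 delta-conserved library (a or b) left 2 calls, and leaving out 1 conserved-region library (a or b) left 1.

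**Figure D2:**
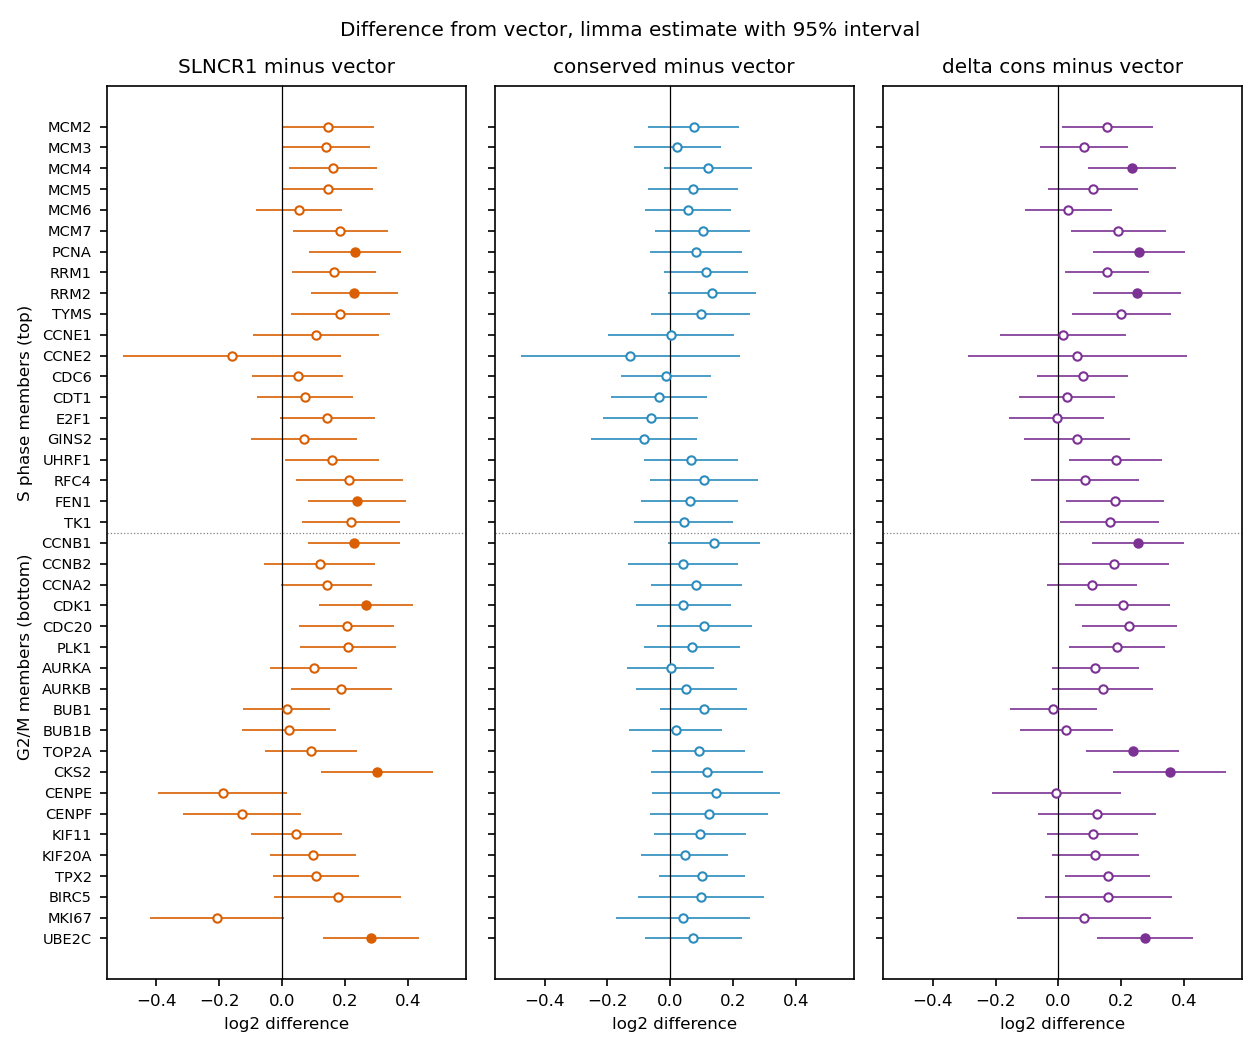
Each point is the limma log2 difference of a gene from vector and each bar its 95% interval, with S phase genes above the dotted line and G2/M genes below it. Filled points passed an adjusted p under 0.05, which 7 genes did with SLNCR1, 7 with delta-conserved and 0 with the conserved region.

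With delta-conserved, 3 of 20 S phase genes rose by limma, namely MCM4, PCNA and RRM2, by 17.6%, 19.5% and 18.9%. None fell. The background of genes called higher was 5.16% of all tested and 7.29% of those whose mean reached 100. MCM4, a helicase subunit, stood at 2831 and 2980 normalized counts in vector libraries a and b and at 3349 and 3484 with delta-conserved (log2 difference 0.23 ± 0.07, limma adjusted p = 0.0316). PCNA stood at 1285 and 1328 with delta-conserved, above both vector values given above (0.26 ± 0.07, limma adjusted p = 0.0244). RRM2 stood at 2208 and 2363, also above both (0.25 ± 0.07, limma adjusted p = 0.0226). These are the same vector libraries as in the comparison with SLNCR1, so the 2 comparisons are not independent. The other helicase subunits were at log2 differences of 0.19 (MCM7), 0.155 (MCM2), 0.11 (MCM5), 0.08 (MCM3) and 0.03 (MCM6), TYMS at 0.20, UHRF1 at 0.18, FEN1 at 0.18, TK1 at 0.16 and RRM1 at 0.155. RFC4, at 0.09, CDC6, at 0.08, and GINS2, at 0.06, did not overlap with vector either. CCNE1, CCNE2, CDT1 and E2F1 overlapped, E2F1 being at -0.005 with a 95% interval from -0.16 to 0.15. In the authors' deposited table no S phase gene passed, 5 were higher at an unadjusted p under 0.05 (4.31% of all entries), and MCM4 and RRM2 came nearest, with adjusted p of 0.0524 and 0.0544.

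Of the G2/M genes, 4 of 20 rose by limma with delta-conserved: CCNB1, TOP2A, CKS2 and UBE2C. The background was again 5.16% of all genes tested and 7.29% of those whose mean reached 100. The increases were 19.3%, 17.8%, 27.8% and 21.0%. The authors' deposited table called 2 of them, TOP2A (log2 0.23, adjusted p = 0.041) and CKS2 (log2 0.35, adjusted p = 0.0486), against 1.11% of all entries tested that were called higher there, and 8 were higher at an unadjusted p under 0.05, against 4.31% of all entries. TOP2A, which untangles sister chromatids, stood at 3486 and 3550 normalized counts in vector and at 4032 and 4258 with delta-conserved (0.24 ± 0.07, limma adjusted p = 0.0384). CKS2 stood at 628 and 644 with delta-conserved, the 2 libraries lying closer together than with SLNCR1 (0.35 ± 0.08, limma adjusted p = 0.0133). CCNB1 stood at 1644.5 and 1702 (0.25 ± 0.07, limma adjusted p = 0.026), and UBE2C at 931 and 917 (0.28 ± 0.07, limma adjusted p = 0.0224). All 4 genes lay above vector in both libraries. CDC20 was at 0.22 and CDK1 at 0.20, with limma adjusted p of 0.0544 and 0.0786.

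The remaining G2/M genes with delta-conserved ranged from a log2 difference of -0.02 (BUB1) to 0.19 (PLK1), and 18 of 20 differences in the set were above 0. BUB1 was the 1 gene whose libraries both lay below vector, at 960 and 969 normalized counts against 974 and 977. CENPE was at -0.0068, CENPF at 0.12 and MKI67 at 0.08. Both delta-conserved libraries lay above both vector libraries for 16 of 20 S phase and 16 of 20 G2/M genes, against 27.7% of all genes. The median differences were 0.13 and 0.15, against -0.0028 for all genes tested and 0.02 for those whose mean reached 100. All 7 limma calls were lost without vector library a, without delta-conserved library a or without delta-conserved library b. More members were called without either SLNCR1 library, and fewer without either conserved-region library. The number of all genes called higher moved the same way in each of these fits.

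With the conserved region alone, no S phase or G2/M gene passed in either test. Limma called 0 of 40, with 0 at an unadjusted p under 0.05, and 0.00623% of all genes were called higher. The authors' deposited table also called 0 of 40, with 0 at an unadjusted p under 0.05, against 0.0175% called higher of all entries tested and 0.725% higher at an unadjusted p under 0.05. The S phase differences ran from -0.13 (CCNE2) to 0.13 (RRM2) and the G2/M differences from 0.0012 (AURKA) to 0.15 (CENPE). PCNA stood at 1132 and 1184 normalized counts, RRM2 at 2045 and 2168 and CCNB1 at 1495 and 1597, each above both vector libraries, PCNA library a by less than 1 normalized count. UBE2C stood at 785 and 822, the lower of them within 1 normalized count of the higher vector library. Both conserved-region libraries lay above both vector libraries for 8 of 20 S phase and 13 of 20 G2/M genes, and below them for CCNE2 and GINS2. The shares above vector were 25.0% of all genes and 3412 of the 11202 whose mean reached 100, and the S phase count is not far from the latter. The median differences were 0.06 and 0.09, against 0.02 for all genes tested and 0.03 for those whose mean reached 100. The S phase median rested on single libraries: it was 0.02 without vector library a and 0.12 without b, and 0.10 without conserved-region library a and 0.03 without b. Upper limits of the 95% intervals were 0.29 for CCNB1 and 0.27 for RRM2, above the differences of these genes with SLNCR1 and delta-conserved. For MCM4 and TOP2A they were 0.26 and 0.2368, above the differences of 0.23 and 0.2361 that limma called with delta-conserved. They were 0.23 for PCNA, 0.22 for FEN1, 0.19 for CDK1, 0.30 for CKS2 and 0.23 for UBE2C. Each of these lay below the differences that limma called with the other constructs, for PCNA narrowly (0.2287 against 0.2302 with SLNCR1). Those differences have intervals of their own and share the vector libraries, so this comparison cannot show that the constructs differ. The direct comparisons of constructs are given next.

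The constructs were then compared with each other, which uses the vector libraries only for scaling and for the shared estimate of the spread. Between SLNCR1 and delta-conserved limma called 0 of 40 members and 0% of all genes. At an unadjusted p under 0.05, 2 members were lower with SLNCR1, CENPF and MKI67, against 869 of 16051 genes tested. That count is near the share over all genes and is no result about the members. The 95% interval of the difference was -0.17 to 0.12 for PCNA, -0.16 to 0.12 for RRM2, -0.17 to 0.12 for CCNB1, -0.23 to 0.13 for CKS2 and -0.15 to 0.16 for UBE2C. For TOP2A it was -0.29 to 0.0025. The median differences were 0.01 for S phase and -0.02 for G2/M genes. Without SLNCR1 library a some members were called, all lower with SLNCR1, and calls over all genes appeared too, most of them lower.

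Between the conserved region and delta-conserved limma again called 0 of 40, while 6.89% of all genes were called in either direction. At an unadjusted p under 0.05, 4 members were lower with the conserved region, and they were PCNA (-0.17), CDK1 (-0.16), CKS2 (-0.24) and UBE2C (-0.20). At this threshold 1360 of 16051 genes tested were lower, and 1181 of the 11202 whose mean reached 100. The count of 4 is near these shares and is no result about the members. Most members leaned the same way, 18 of 20 in each set being below 0, with medians of -0.09 and -0.08 against -0.0055 for all genes. Both conserved-region libraries lay below both delta-conserved libraries for 16 of 20 S phase and 10 of 20 G2/M genes, against 28.9% of all genes. Leaving out either SLNCR1 library brought member calls that were lower with the conserved region, and the number of all genes called lower rose too.

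Between SLNCR1 and the conserved region limma called 1 of 40 members, the kinetochore motor CENPE, against 11.5% of all genes called in either direction. CENPE stood at 974 and 803 normalized counts in SLNCR1 libraries a and b and at 1102 and 1130 with the conserved region. Both SLNCR1 values were lower, by 20.7% on average (log2 -0.33 ± 0.10, limma adjusted p = 0.0324). That call was lost without SLNCR1 library b (log2 -0.19, adjusted p = 0.231), and when either conserved-region library was left out (adjusted p = 0.134 without a and 0.17 without b). CDK1 came next in the opposite direction (0.22 ± 0.07, limma adjusted p = 0.0501), followed by UBE2C (0.21) and E2F1 (0.21), which did not pass either. SLNCR1 libraries lay above the conserved-region libraries for 15 of 20 S phase and 7 of 20 G2/M genes. The shares were 29.3% of all genes and 3761 of the 11202 whose mean reached 100, so the G2/M count is no result about that set. They lay below the conserved-region libraries for 0 S phase and 4 G2/M genes (BUB1, CENPE, CENPF and MKI67), against 4483 of 16051 genes. Without SLNCR1 library a more members were called, but so were more of all genes, and this is no result about the members.

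**Figure D3:**
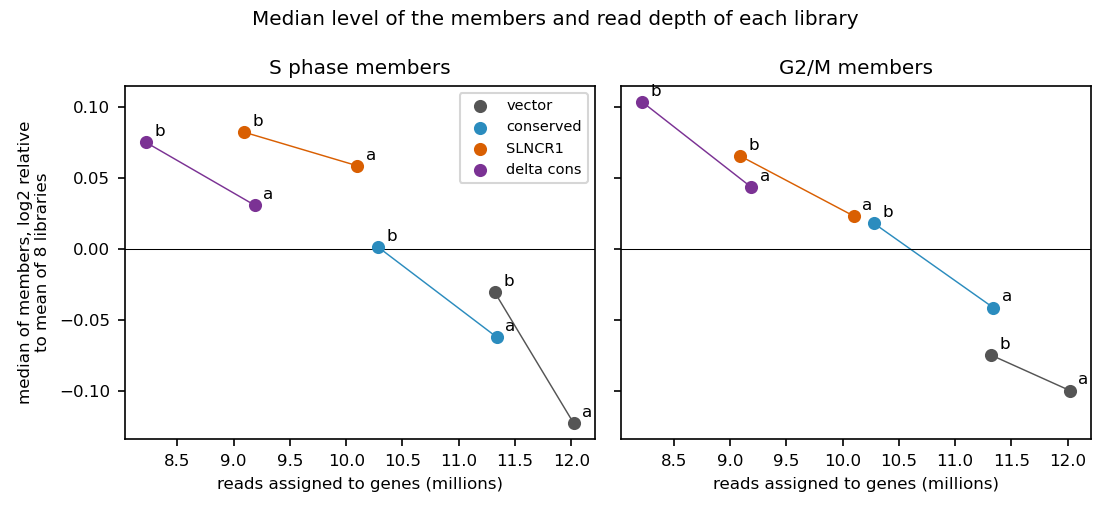
Each point is a library, placed by its reads assigned to genes and by the median log2 level of the S phase genes (left) or G2/M genes (right) relative to the mean of the 8 libraries. Lines join the 2 libraries of a group, and in each group the shallower library b lies higher in both sets.

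Read depth moved with these levels. The vector libraries, with 12015394 and 11321294 assigned reads, were lowest in the medians of G2/M genes, and the delta-conserved libraries, with 9187241 and 8222868, held the highest value there (0.10 in library b). For S phase genes the order across groups followed depth less closely: the SLNCR1 medians (0.06 and 0.08 in libraries a and b) were above those of the shallower delta-conserved libraries with the same letter (0.03 and 0.07). Within each of the 4 groups the shallower library had the higher median in both sets. The difference between libraries b and a, as the median over genes, was 0.09 in vector, 0.05 for SLNCR1, 0.05 for delta-conserved and 0.07 for the conserved-region group, taking S phase genes, which is of the same order as many of the differences between groups. For G2/M genes it was 0.03, 0.06, 0.06 and 0.04 in the same order of groups. Over all genes whose mean reached 100 it was between 0.02 and 0.03, and in vector the G2/M value was no larger than that. After thinning all libraries to the 8206170 reads that the shallowest contributed to the fit, limma called 7 members with SLNCR1 and 8 with delta-conserved. Since the deepest and shallowest groups are also different treatments, what came with depth and what came with the construct cannot be told apart between groups.

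**Figure D4:**
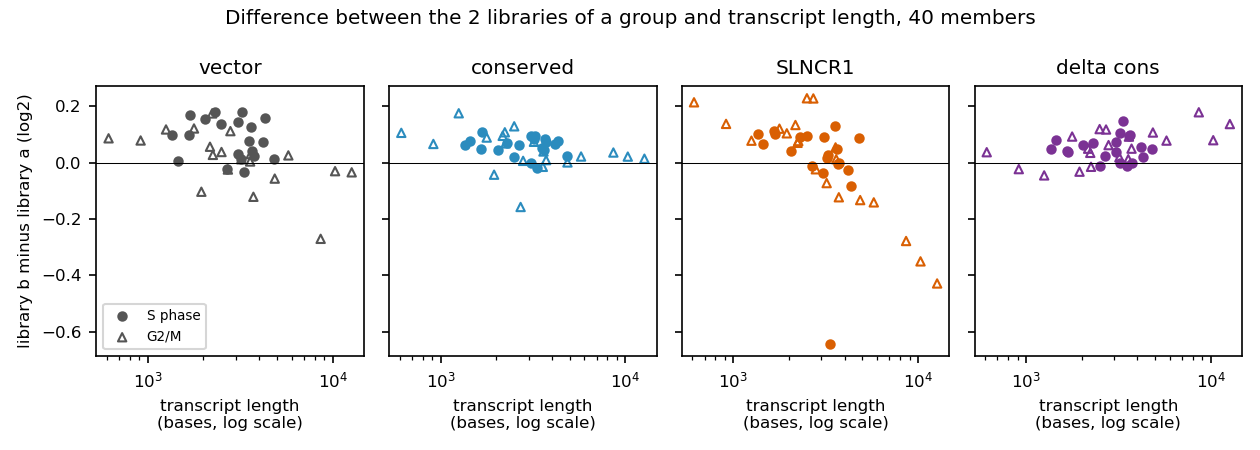
For each of the 40 genes the difference between libraries b and a of a group (log2 of the normalized count plus 1) is plotted against the length of its longest annotated transcript in bases on a log axis, with S phase genes as filled circles and G2/M genes as open triangles. In the SLNCR1 panel the values fall with length, down to -0.43 for MKI67, and CCNE2 lies apart at -0.64.

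Transcript length separated the 2 SLNCR1 libraries. In library b relative to library a, the 9 members with transcripts up to 2000 bases were higher, by a median log2 of 0.10. The 23 members over 2000 and up to 4000 bases differed by 0.04, the 5 over 4000 and up to 8000 bases by -0.08 and the 3 over 8000 bases by -0.35. The genes tested that were matched to a length (85.83%) showed the same order, with medians of 0.13, 0.05, -0.09 and -0.25 in those classes. Over these genes the classes also differed between groups. Relative to the mean of the 8 libraries, those up to 2000 bases had median log2 levels of -0.07 and -0.01 in vector libraries a and b. With SLNCR1 they had 0.0068 and 0.13. Those over 8000 bases had 0.08 and 0.03 in vector and -0.0013 and -0.27 with SLNCR1. MKI67, whose transcript is the longest of the 40, stood at 5600 normalized counts in SLNCR1 library a and 4161 in b, CENPF at 4611.5 and 3618, and CENPE at 974 and 803. In the other 7 libraries MKI67 ranged from 5503 to 6175, so the value in library b was the lowest of all 8. The short transcripts of CKS2 and UBE2C, in contrast, were highest of all 8 libraries in SLNCR1 library b, at 661 and 975. CCNE2, of middle length, had 170 reads in SLNCR1 library a and 99 in b, and its fall there was larger than that of any other member. With the length trend removed in each library, limma called 3 members with SLNCR1 and 10 with delta-conserved, and CENPE no longer differed between SLNCR1 and the conserved region (log2 -0.17, adjusted p = 0.123). The 3 with SLNCR1 were RRM2, FEN1 and CDK1. PCNA, CCNB1, CKS2 and UBE2C lost their calls with SLNCR1 (limma adjusted p = 0.172, 0.0506, 0.0688 and 0.0756), while all 7 called with delta-conserved kept theirs. With a trend on GC content removed in the same way, the calls were 9 with SLNCR1 and 10 with delta-conserved, and CENPE was at -0.18 (adjusted p = 0.117).

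Other cell cycle genes, taken from 5 lists by function, were read the same way. Their counts stand beside 3.92% of all genes called higher and 7.41% called lower with SLNCR1, and 5.16% and 5.25% with delta-conserved. At an unadjusted p under 0.05 by limma, 13.7% of all genes were higher with SLNCR1, 12.2% with delta-conserved and 2.98% with the conserved region. Of 20 G1 cyclins, cyclin-dependent kinases and their regulators, 18 were tested by limma. With SLNCR1 2 rose and 1 fell, with delta-conserved 2 rose and 1 fell, and with the conserved region 0 passed (1 above and 1 below vector at an unadjusted p under 0.05). CCND1, which encodes cyclin D1, the G1 cyclin that responds to growth signals, stood at 2993 and 3377 normalized counts in vector, 3836 and 3775.5 with SLNCR1, 3845 and 4093 with delta-conserved and 3471 and 3644 with the conserved region. It lay above vector in all 6 libraries. In the authors' deposited table it rose with delta-conserved (log2 0.31, adjusted p = 0.0382), and in that of SLNCR1 it was at 0.26 with an adjusted p of 0.305. Limma called it with both, at 0.26 ± 0.07 (adjusted p = 0.0314) and 0.32 ± 0.07 (adjusted p = 0.0103).

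Among 38 further origin and replisome genes, 2 rose by limma with SLNCR1, 1 with delta-conserved and 0 with the conserved region (0 at an unadjusted p under 0.05). Read against those shares over all genes, the counts are no result about this list. DUT, which keeps uracil out of DNA, had 756 and 760 normalized counts in vector, 930 and 970 with SLNCR1 and 900 and 941 with delta-conserved. It was higher than in vector in all of these libraries (log2 0.33 ± 0.07, limma adjusted p = 0.00627, and 0.28 ± 0.07, adjusted p = 0.0145). GMNN, an inhibitor of CDT1, passed with SLNCR1 (0.30 ± 0.085, limma adjusted p = 0.0327) and was at 0.06 with delta-conserved. The medians of this list were 0.06 with SLNCR1, 0.06 with delta-conserved and 0.05 with the conserved region, against 0.15, 0.13 and 0.06 for the S phase genes.

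Of 40 further spindle, kinetochore and condensin genes, 1 rose by limma with SLNCR1 and 1 with delta-conserved, in both cases BUB3, a spindle checkpoint protein (0.23 ± 0.06, adjusted p = 0.0302, and 0.25 ± 0.06, adjusted p = 0.0182). Both counts are below the share over all genes. With the conserved region 0 of 40 passed (2 higher at an unadjusted p under 0.05). The medians were 0.09 for SLNCR1, 0.12 for delta-conserved and 0.06 for the conserved region. Of 19 RB, E2F and DREAM factors, 0 passed by limma with SLNCR1 (2 higher at an unadjusted p under 0.05) and with the conserved region (1 higher and 1 lower). With delta-conserved 1 of the 19 rose: TFDP1, the partner of E2F proteins (0.245 ± 0.07, limma adjusted p = 0.032). That count is near the 5.16% of all genes called higher and is no result about this list. Between the conserved region and delta-conserved, 1 was higher and 1 lower, beside 6.89% of all genes called in either direction. LIN37 of the DREAM complex was higher (0.96 ± 0.24, limma adjusted p = 0.0182) and TFDP2 lower (-0.33 ± 0.08, limma adjusted p = 0.0206) with the conserved region. LIN37 had few reads: 28 and 36 in delta-conserved libraries a and b, 83 and 74 with the conserved region, and 94 and 55 in vector. Of 13 APC/C subunits none passed against vector by limma, 2 being higher at an unadjusted p under 0.05 with SLNCR1 and 2 with delta-conserved, and their medians were 0.02 and 0.0057. With the conserved region 0 of the 13 passed (0 at an unadjusted p under 0.05), with a median of 0.06.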

How the data were processed

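RNA of A375 cells was measured in 8 libraries, 2 in each of 4 groups, per the labels. Per the submitters' processing notes, the authors used STAR, featureCounts and DESeq with hg19. No version, setting or annotation release is named there. The 3 deposited tables compare each construct with vector. Their signal is the authors' mean normalized read count over the 2 libraries of a group, per the file headers and the values. Their ratio is the deposited fold change (construct over vector), of which log2 was taken here, and their p-values, raw and adjusted, are those of the authors' test. The kit does not mark strand, so reads of genes that overlap on opposite strands cannot be told apart.

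Since each group mean adds the whole reads of 2 libraries, each divided by its size factor, the reads of single libraries were solved for. The solution was unique for all 40 members, for every gene with reads in 3 of the groups, and for 99.981% of genes in the conserved-region group. Reads were scaled by median-of-ratios size factors over the 8 libraries. Limma 3.58.1 in R 4.3.3 (moderated variances with a trend, 4 groups) was run on log2(normalized count + 1) over the 16051 genes whose mean reached 10, and p-values were adjusted by Benjamini-Hochberg over all of them. Residual degrees of freedom were 4, and the prior added 13.6. Entries whose names had become dates (28) were left out. Differences of low genes are understated on this scale. Recovery, motif searches and figures used Python 3.11.15, numpy 2.4.6, pandas 2.3.3 and matplotlib 3.10.9, and the recovery and the limma step were tested on simulated data. Lengths and GC content came from the longest basic transcript in GENCODE, matched by symbol for all 40 members and 85.83% of genes tested.

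The members and lists were chosen with earlier results of these data known. All 40 members are named. In each other list up to 4 genes are named that passed the authors' test or, where none did, limma, with the largest changes. Alternatives were other scalings, another pseudocount or filter, fits on 2 groups and leaving out each library. Removing trends on length and GC content and thinning reads were added after the data were seen.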

Additional observations from a re-analysis of the deposited data

Results flagged for a closer look

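CENPE, a motor protein of the kinetochore, was flagged because the effects of 2 constructs on it differed by a direct test. It was lower with SLNCR1 than with the conserved region (log2 -0.3344, limma adjusted p = 0.0324), in both SLNCR1 libraries against both conserved-region libraries. Against vector neither difference passed, at -0.19 with SLNCR1 and 0.15 with the conserved region. Its values in SLNCR1 libraries a and b were 974 and 803 normalized counts, and its transcript, of 8612 bases, is in the length class where library b was lower than library a for most genes. The vector libraries, at 1108 and 919, were also far apart.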

How the results depend on the processing

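No paired analysis was possible because the replicate numbers of the labels cannot be tied to the libraries recovered from the group means. Of the 7 members called by limma with SLNCR1 against vector, 3 were called with trimmed-mean scaling, 4 with a filter at a mean of 1, 0 when only the 2 groups were fitted and 3 with the length trend removed; leaving out 1 library gave 0 to 21. With delta-conserved the 7 became 4 when library totals set the scale and 1 under trimmed-mean scaling, and leaving out 1 library gave 0 to 14. In the authors' deposited table of delta-conserved, a threshold of 0.1 gave 5 members instead of 2. Between SLNCR1 and delta-conserved, members were called only when SLNCR1 library a was left out, a fit that also added calls over all genes. Between the conserved region and delta-conserved, fitting only these 2 groups gave 6 (1 higher and 5 lower) and removing the GC trend 2, instead of 0. Over all genes the fit on 2 groups called 1936 higher and 1260 lower of 15896, and the GC fit 1079 and 323 of 16042. The member counts do not exceed these shares and are no result about the members. Leaving out either SLNCR1 library added calls, as described above. Between SLNCR1 and the conserved region, the single call became 4 with library totals, 2 with a pseudocount of 5, 0 with only 2 groups, 0 with the length trend removed and 3 with the GC trend removed, and leaving out 1 library gave 0 to 10. The cause was not tested. For the conserved region against vector 0 members were called under all 16 alternatives.

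All limma calls with SLNCR1 that were left under other scalings or trends were higher, and no called difference of a member changed sign in any of the 6 comparisons. Of the 112 values of the 7 members called with SLNCR1 under the 16 alternatives, 51 kept the call; with delta-conserved 74 of 112 did. UBE2C kept its call in 12 of 16 with SLNCR1 and CKS2 in 13 of 16 with delta-conserved, with adjusted p from 0.00111 to 0.199 and from 0.000572 to 0.156. The median differences from vector stayed above 0 throughout, from 0.1153 to 0.2057 (S phase) and 0.0818 to 0.1522 (G2/M) with SLNCR1, and from 0.0743 to 0.1615 and 0.0901 to 0.1773 with delta-conserved, and from 0.0193 to 0.1235 and 0.0439 to 0.1086 with the conserved region. With 2 libraries a group, leaving out vector library a alone ended every member call against vector, and depth, which differs between groups, cannot be told apart from treatment.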

Other observations

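Among the G1 cyclins, kinases and regulators, 4 genes besides CCND1 passed limma in some comparison and are named here after their values were seen. CDKN2A, which encodes the CDK4 and CDK6 inhibitor p16 and the unrelated ARF, had 185 and 259 normalized counts in vector, 140 and 170 with SLNCR1, 121 and 128 with delta-conserved and 208 and 238 with the conserved region. It was lower than vector with SLNCR1 (log2 -0.50 ± 0.15, limma adjusted p = 0.0395) and with delta-conserved (-0.81 ± 0.15, limma adjusted p = 0.003), and higher with the conserved region than with delta-conserved (0.84 ± 0.15, limma adjusted p = 0.00168). In the authors' deposited tables the falls did not pass, with adjusted p of 0.999 with SLNCR1 and 0.194 with delta-conserved. Because the kit does not mark strand, reads of overlapping genes could not be told apart from it.

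CDK2, the partner of cyclins E and A, rose with SLNCR1 (0.22 ± 0.07, limma adjusted p = 0.0466), and CDK4, the partner of cyclin D1, with delta-conserved (0.23 ± 0.07, limma adjusted p = 0.0481). CDK6 was lower with SLNCR1 than with the conserved region (-0.41 ± 0.10, limma adjusted p = 0.011), and SLNCR1 library b held the lowest of its 8 values, 2123 normalized counts against 2861 in library a.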
